A study of Homo sapiens with 12 samples.

Results

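The response to I-BRD9 was compared between 2 human testicular germ cell tumour lines over all 12 libraries of the series. For each gene the quantity of interest is a difference of differences: the log2 fold change between I-BRD9 and DMSO in TCam-2 minus that in 2102 EP. A positive difference means that the response was more upward in TCam-2 than in 2102 EP, and a negative difference the reverse. The 12 libraries form 4 groups of 3, which are 2102 EP with DMSO, 2102 EP with I-BRD9, TCam-2 with DMSO and TCam-2 with I-BRD9. Both lines carry the genotype label WT, and no allele was altered in any group. Cells were exposed to 15 µM I-BRD9 or to the solvent DMSO for 24 h, at 1 dose and 1 time, and each line stands for 1 tumour type. 2102 EP was kept in DMEM and TCam-2 in RPMI, so that line and medium cannot be told apart. The labels call the 3 libraries of a group biological replicates without saying how the cultures were kept apart, and p-values measure the spread between these libraries.

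2102 EP stems from an embryonal carcinoma, whose undifferentiated cells are close to pluripotent stem cells of the embryo. TCam-2 stems from a seminoma, whose cells are closer to primordial germ cells. Both tumour types express the pluripotency factors POU5F1 and NANOG, with SOX2 as a partner in the former and SOX17 in the latter. BRD9 is a bromodomain protein that reads acetylated histones as a subunit of the non-canonical BAF complex, a chromatin remodeller that slides and ejects nucleosomes. I-BRD9 is a small molecule that occupies this bromodomain.

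Library totals lay between 7290335 and 10053366 estimated counts, a depth at which 3 counts correspond to 0.297 to 0.409 CPM (counts scaled to a common library size). SOX17 averaged 193 CPM in TCam-2 with DMSO and 0.0774 CPM in 2102 EP with DMSO, and LEFTY2, an embryonal carcinoma marker, averaged 243 CPM in 2102 EP with DMSO and was at 0 in the corresponding TCam-2 libraries. The labelled lines thus carried the markers of their tumour types. Markers of blood and immune cells summed to 2.02 to 7.81 CPM over 9 genes, with CD3E and HBB at 0 in all 12 libraries. Of the 8 fibroblast and stromal markers listed, DCN, FAP and LUM were at 0 in all 2102 EP libraries and at most 0.944 CPM in TCam-2. COL3A1 reached at most 0.114 CPM in 2102 EP and 0.944 CPM in TCam-2, and PDGFRB at most 2.9 and 1.35 CPM. COL1A1 averaged 16.4 and 20.5 CPM in 2102 EP without and with I-BRD9 and 19.3 and 16.3 CPM in TCam-2. THY1 in 2102 EP and COL1A2 in TCam-2 were higher than COL1A1. The 10 testis somatic markers summed to 16.2 to 22.5 CPM in 2102 EP with DMSO and 26.2 to 36.8 CPM with I-BRD9, and to 28.2 to 34.7 CPM and 30.9 to 33.8 CPM in TCam-2, most of it SOX9 and AMH; the part of these sums in the results was not tested. No line difference was called for the target BRD9 itself. Its CPM in replicates 1, 2 and 3 were 109, 100 and 124 in 2102 EP with DMSO and 105, 89.7 and 83.1 with I-BRD9, and 138, 142 and 146 in TCam-2 with DMSO and 115, 129 and 125 with I-BRD9. The log2 difference of its response was 0.06 (95% interval -0.22 to 0.33, edgeR quasi-likelihood test, adjusted p = 0.844). The fall of BRD9 within 2102 EP passed the same test. That call was lost without DMSO replicate 1 (adjusted p = 0.0645) or 3 (0.177), without I-BRD9 replicate 2 (0.105) or 3 (0.166), and with upper-quartile scaling (0.0712). In TCam-2 all I-BRD9 libraries lay below all DMSO libraries for BRD9. BRD7, a close relative of BRD9 in the PBAF complex, had a log2 difference of 0.05 (95% interval -0.17 to 0.26, adjusted p = 0.827).

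A difference in response was called at an adjusted p under 0.05 for 2043 of 15614 genes tested, which is 13.1%. It was positive for 921 genes (5.9% of those tested) and negative for 1122 (7.19%), and it was at least 1 in size on the log2 scale for 968 (6.2%). Among the 2043 genes, 265 responded in opposite directions in the lines, each effect passing the test in its own line (1.7% of the genes tested). A further 734 genes changed in 2102 EP without passing the test in TCam-2, 545 changed in TCam-2 without passing it in 2102 EP, 208 changed in both lines with one sign and more in 2102 EP, and 174 did so more in TCam-2. The remaining called genes were 81 with a mean under 1 CPM in both groups of a line, of which 55 were low in 2102 EP and 26 in TCam-2, and 36 that passed the test in neither line. For comparison, 2837 genes rose (18.2%) and 2902 fell (18.6%) in 2102 EP, and 2389 rose (15.3%) and 2570 fell (16.5%) in TCam-2. A call in one line alone did not amount to a difference: 4918 genes were called in 1 line and not in the other, and the difference itself passed the test for 1346 of them. Of 2890 genes called in both lines, 2617 moved the same way, and 383 of these differed in size. Across the 15614 genes, which are not independent replicates, the line effects had a Pearson r of 0.389 and a Spearman coefficient of 0.468.

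**Figure D1:**
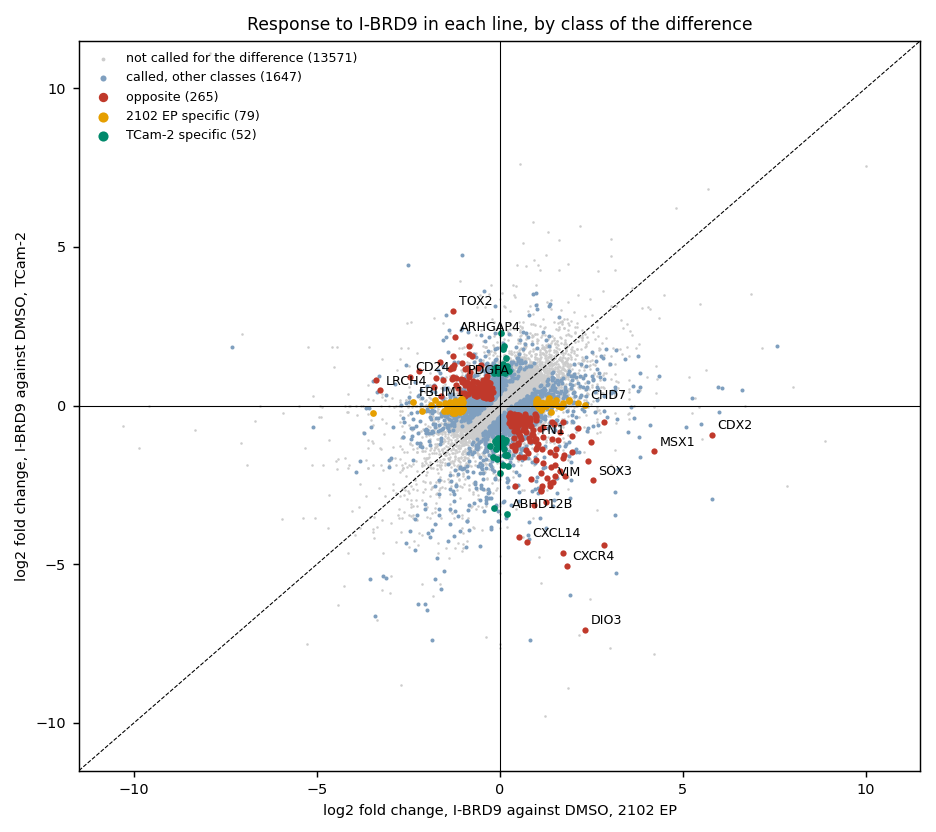
Log2 fold change between I-BRD9 and DMSO for the 15614 genes tested, in 2102 EP (horizontal axis) and TCam-2 (vertical axis), 1 point per gene, coloured by class; the dashed line marks equal responses. The 265 genes with opposite responses (red) fill the upper left and lower right quadrants, and the line-specific genes (79 for 2102 EP in orange, 52 for TCam-2 in green) lie along the axes.

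Opposite responses came in similar numbers from both directions: 138 genes rose in 2102 EP and fell in TCam-2, and 127 fell in 2102 EP and rose in TCam-2. The median size of the log2 difference over the 265 genes was 1.33. Of the first set 131 and of the second 127 are annotated as protein-coding. Genes with 5 CPM or more in the higher group of each line and the largest smaller-of-both effects included structural and matrix genes of mesenchymal cells (VIM, FN1, SERPINE2), which rose in 2102 EP and fell in TCam-2, and the surface glycoprotein CD24 and the growth factor PDGFA, which did the reverse. These examples are described first, with the sequence before their transcription starts. Genes named here and below were picked for large called effects, so separation of their treated and control libraries largely follows from that choice. It is given as a description and adds no support.

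The sequences below were taken from RefSeq on GRCh38.p14 and run 5′ to 3′ on the strand of the gene up to the base before its start, or, for FN1 and PDGFA, up to the start of the longer GENCODE gene model. They are shown because these 4 genes are the examples of opposite responses described below. The motifs searched, on both strands, were the TATA box TATAAA, the GC box GGGCGG, the AP-1 motif TGANTCA, the CRE TGACGTCA, the octamer ATGCAAAT, the SOX motif ACAATG and the TEAD motif GGAATG, and capitals mark every match.
VIM (chr10:17227991-17228240, plus strand): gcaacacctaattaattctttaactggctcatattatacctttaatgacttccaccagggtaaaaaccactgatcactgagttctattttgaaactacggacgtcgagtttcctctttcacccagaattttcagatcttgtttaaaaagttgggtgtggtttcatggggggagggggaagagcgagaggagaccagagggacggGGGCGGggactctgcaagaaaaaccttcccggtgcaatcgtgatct
FN1 (chr2:215436173-215436318, minus strand): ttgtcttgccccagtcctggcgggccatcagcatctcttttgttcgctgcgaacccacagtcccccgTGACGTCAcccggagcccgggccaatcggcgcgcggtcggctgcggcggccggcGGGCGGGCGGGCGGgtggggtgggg
CD24 (chr6:106975628-106975877, minus strand): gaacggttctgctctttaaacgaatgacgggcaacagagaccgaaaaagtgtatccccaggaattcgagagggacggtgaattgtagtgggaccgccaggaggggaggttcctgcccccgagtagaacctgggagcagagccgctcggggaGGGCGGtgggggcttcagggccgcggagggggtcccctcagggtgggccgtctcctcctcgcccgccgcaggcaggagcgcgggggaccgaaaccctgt
PDGFA (chr7:520297-520476, minus strand): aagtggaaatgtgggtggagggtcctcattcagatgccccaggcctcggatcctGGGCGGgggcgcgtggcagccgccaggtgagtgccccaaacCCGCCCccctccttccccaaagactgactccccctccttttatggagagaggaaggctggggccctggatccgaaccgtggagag
In these windows the capitals are GC boxes in all 4 genes and a single CRE in FN1. GC boxes are common: over the 250 bases before the RefSeq start, 67.6% of 11235 promoters of tested genes hold one, against 74.8% of 103 promoters of genes that rose in TCam-2 and fell in 2102 EP and 70.8% of 106 that did the reverse. A CRE was found in 2.91% of all promoters, in 2.91% of the first set and in 2.83% of the second. The AP-1 motif was found in 3.61%, 7.77% and 4.72%, the TATA box in 5.36%, 0.971% and 8.49%, and the octamer in 1.38%, 0.971% and 1.89%. The SOX motif gave 5.04%, 4.85% and 2.83%, and the TEAD motif 9.21%, 9.71% and 7.55%. None of these motifs contains another. These shares are a description of letters in short windows, with motifs chosen after the expression values were known.

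VIM encodes vimentin, the intermediate filament protein of mesenchymal cells (chromosome 10, 17228259 to 17237593, GRCh38). Its level in 2102 EP was 143, 148 and 152 CPM with DMSO and 421, 376 and 417 CPM with I-BRD9. TCam-2 gave 99.3, 98 and 84.4 CPM with DMSO and 18.6, 19.5 and 15.2 CPM with I-BRD9. The treated libraries thus lay above all controls in one line and below all controls in the other, with no overlap in either. The log2 fold change was 1.45 ± 0.09 (SE) in 2102 EP and -2.40 ± 0.10 in TCam-2, a difference of -3.85 ± 0.13 (adjusted p = 2.57e-15). VIM was higher in 2102 EP than in TCam-2 in both conditions, and the gap widened.

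FN1, which encodes the matrix protein fibronectin (chromosome 2, 215360440 to 215436172), was the reverse in its starting levels. It measured 4.23, 6.72 and 4.22 CPM in 2102 EP with DMSO against 10.4, 10.2 and 9.59 CPM with I-BRD9, and 75.1, 86.2 and 79.3 CPM in TCam-2 with DMSO against 41.7, 35.7 and 38.3 CPM with I-BRD9. The groups did not overlap in either line, and the levels of the lines moved towards each other. The log2 difference was -2.04 ± 0.21 (adjusted p = 2.17e-07). SERPINE2, a secreted inhibitor of serine proteases, averaged 54.0 CPM and 108 CPM in 2102 EP without and with I-BRD9, and 87.2 and 33.5 CPM in TCam-2, with a log2 difference of -2.38 ± 0.13 (adjusted p = 8.22e-12). This reversed the order of the lines for SERPINE2.

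CD24 encodes a surface glycoprotein that is abundant on pluripotent and epithelial cells (chromosome 6, 106969831 to 106975627). With DMSO, 2102 EP gave 324, 320 and 326 CPM, and with I-BRD9 55.2, 62.7 and 59.8 CPM. In TCam-2 the values were 194, 189 and 180 CPM with DMSO and 360, 346 and 355 CPM with I-BRD9. Each group of 3 was tight beside the shift, and the line with the higher level changed from 2102 EP to TCam-2. Its log2 fold change was -2.45 ± 0.08 in 2102 EP and 0.91 ± 0.07 in TCam-2, a difference of 3.36 ± 0.10 (adjusted p = 4.05e-16).

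PDGFA, a platelet-derived growth factor chain that acts through the receptor PDGFRA (chromosome 7, 497258 to 520296), fell in 2102 EP from 255, 276 and 276 CPM to 138, 127 and 135 CPM. It rose in TCam-2 from 436, 427 and 410 CPM to 774, 775 and 697 CPM. The level in TCam-2 was above that in 2102 EP in every library, and the gap grew with treatment. The log2 difference was 1.83 ± 0.11 (adjusted p = 3.58e-11).

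**Figure D2:**
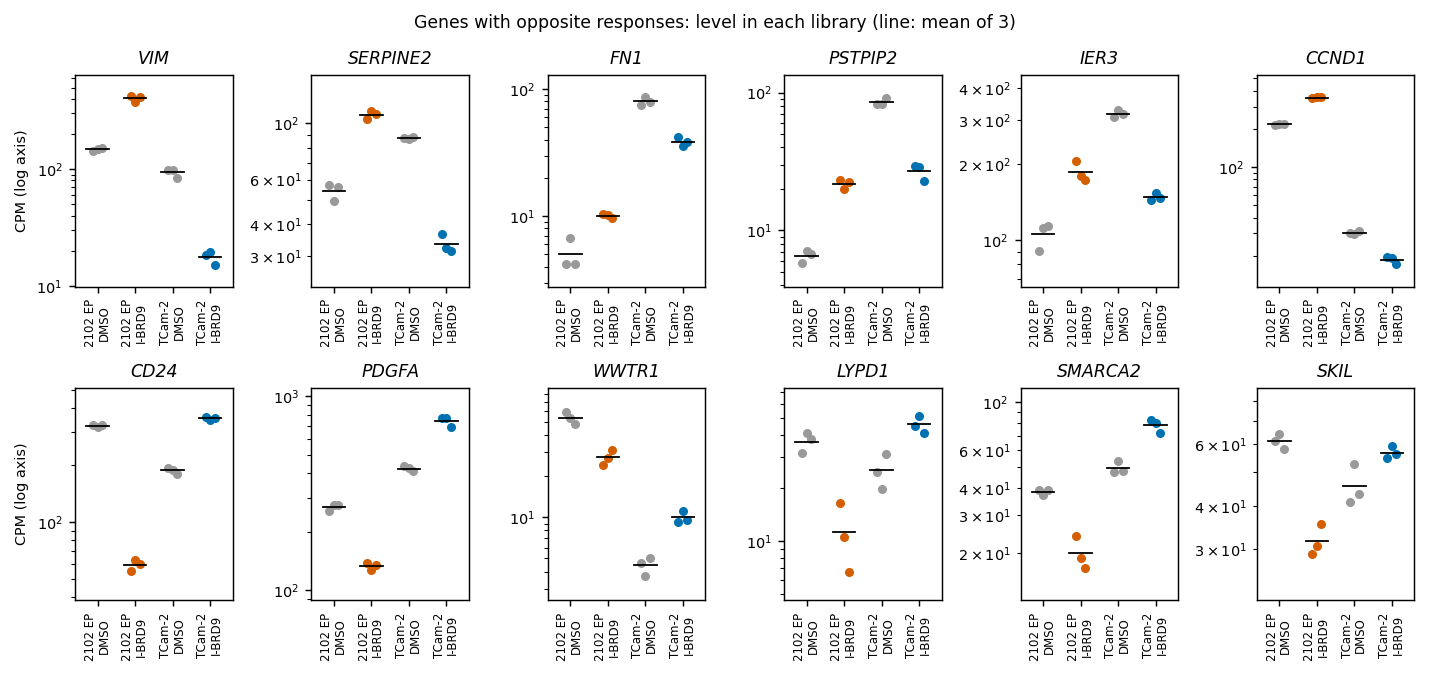
CPM (log axis, scale set per gene) of 12 genes with opposite responses in each library, by line and treatment; horizontal lines are means of 3 libraries. In the upper row (VIM to CCND1) the I-BRD9 points lie above DMSO in 2102 EP and below in TCam-2, and in the lower row (CD24 to SKIL) the reverse; for LYPD1 and SKIL the rise in TCam-2 passed the test by a small margin.

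Among the most negative differences, CXCR4, ANGPTL4 and CXCL14 were high in untreated TCam-2, fell there to under 20 CPM and rose in 2102 EP. CXCR4, the chemokine receptor that guides migrating germ cells, measured 131, 126 and 131 CPM in TCam-2 with DMSO and 3.56, 3.84 and 4.29 CPM with I-BRD9. The same gene measured 0.686, 1.3 and 1.79 CPM in 2102 EP with DMSO and 4.09, 3.61 and 5.80 CPM with I-BRD9. After treatment the libraries of both lines overlapped in level. The log2 difference for CXCR4 was -6.90 ± 0.30 (adjusted p = 2.09e-13).

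CXCL14, a chemokine, averaged 323 CPM with DMSO and 16.4 CPM with I-BRD9 there and 25.6 and 43.2 CPM in 2102 EP (log2 difference -5.06 ± 0.16, adjusted p = 4.05e-16). Some reads of CXCL14 were shared between genes in 5 of 12 libraries. ANGPTL4, a secreted regulator of lipoprotein lipase, averaged 98.2 and 3.86 CPM in TCam-2 and 1.61 and 5.50 CPM in 2102 EP, and its log2 difference was -6.39 ± 0.39 (adjusted p = 4.82e-09). For both genes the treated and control libraries were separate in each line.

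DIO3, the imprinted deiodinase that inactivates thyroid hormone, fell in TCam-2 from 438 counts over the 3 DMSO libraries to 3 counts over the 3 I-BRD9 libraries, a ratio of 152 with a 95% counting interval of 51.5 to 738. In 2102 EP it rose from a mean of 0.716 to 3.68 CPM. The fitted log2 difference, -9.40 ± 0.51, rests on those 3 counts for its size (adjusted p = 8.22e-12).

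SOX3, a relative of SOX2 that marks neural progenitors, rose in 2102 EP from 7.09, 6.84 and 6.01 CPM to 34.5, 42.7 and 40.3 CPM. In TCam-2 its low level fell from 1.65, 1.17 and 1.35 CPM to 0.396, 0.120 and 0.232 CPM. Its log2 difference was -4.91 ± 0.43 (adjusted p = 2.72e-08). CDX2, a homeobox factor of trophectoderm and gut, rose from 0.229, 0.236 and 0.384 CPM to 12.9, 16.8 and 19 CPM in 2102 EP and went from 1.42, 2.44 and 1.59 CPM to 0.989, 0.721 and 1.16 CPM in TCam-2. The log2 difference for CDX2 was -6.71 ± 0.52 (adjusted p = 3.92e-09) and passed the test in every setting. Its fall in TCam-2 did not: it was lost in 16 of 21 other settings, among them those without TCam-2 DMSO replicate 2 (adjusted p = 0.248) and without TCam-2 I-BRD9 replicate 2 (adjusted p = 0.157). For MSX1, a homeobox factor of mesoderm and neural crest, the mean rose from 0.554 to 10.7 CPM in 2102 EP and fell from 1.43 to 0.511 CPM in TCam-2 (log2 difference -5.67 ± 0.61, adjusted p = 6.11e-07). That fall was lost without TCam-2 DMSO replicate 1 (adjusted p = 0.0734), without TCam-2 I-BRD9 replicate 2 (adjusted p = 0.0716) and with limma voom (adjusted p = 0.0787).

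Further genes that rose in 2102 EP and fell in TCam-2 spanned signalling, matrix and secreted proteins. PSTPIP2, an actin-associated adaptor, averaged 6.56 and 21.8 CPM in 2102 EP without and with I-BRD9, and 85.1 and 26.9 CPM in TCam-2. MERTK, a receptor tyrosine kinase for apoptotic cell uptake, averaged 3.09 and 6.09 CPM in 2102 EP and 39.2 and 11.9 CPM in TCam-2. FOLR1, a folate receptor, averaged 1.07 and 6.16 CPM in 2102 EP and 55.5 and 25.1 CPM in TCam-2. Each of these was higher in TCam-2 than in 2102 EP with DMSO, and the gap was smaller with I-BRD9. The log2 differences were -3.39 ± 0.18 for PSTPIP2, -2.70 ± 0.27 for MERTK and -3.63 ± 0.26 for FOLR1, with adjusted p of 6.2e-12, 2.49e-07 and 1.18e-09. VASH1, IGFBP3, SP6, SRGAP1 and CREB3L1 were of the same kind, with log2 differences from -3.39 (VASH1) to -2.18 (CREB3L1). IER3, an immediate early gene and NF-kB target, rose from 106 to 187 CPM in 2102 EP and fell from 317 to 148 CPM in TCam-2 (log2 difference -1.92 ± 0.13, adjusted p = 2.58e-10).

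WWTR1 was among the genes that fell in 2102 EP and rose in TCam-2. It encodes TAZ, a transcriptional coactivator of the Hippo pathway. It fell in 2102 EP from 59.3, 53.4 and 48.2 CPM to 24.3, 27.1 and 31.1 CPM, and rose in TCam-2 from 4.60, 3.71 and 5.02 CPM to 9.20, 11.2 and 9.63 CPM. Groups were separate in both lines, and 2102 EP stayed the line with more WWTR1 (log2 difference 2.13 ± 0.22, adjusted p = 2.65e-07). ARHGAP4, an activator of GTP hydrolysis by small GTPases, averaged 10.9 and 4.67 CPM in 2102 EP and 1.33 and 5.99 CPM in TCam-2, a log2 difference of 3.40 ± 0.40 (adjusted p = 2.84e-06). TOX2, an HMG-box factor, averaged 45.9 and 19.1 CPM in 2102 EP and 0.253 and 2.27 CPM in TCam-2 (log2 difference 4.26 ± 0.55, adjusted p = 2.03e-05). ALPG, a germ cell alkaline phosphatase close in sequence to other family members, averaged 17.4 and 9.77 CPM in 2102 EP and 1.09 and 4.01 CPM in TCam-2 (log2 difference 2.72 ± 0.33, adjusted p = 3.79e-06).

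The other members of this direction with the largest effects in both lines had log2 differences from 1.81 (KLF13) to 2.60 (LYPD1): NATD1, CAVIN3, CRIP2, PTP4A3, LYPD1, SLC22A23, KLF13 and ZBTB3. CAVIN3, a coat protein of caveolae, averaged 26.2 and 10.8 CPM in 2102 EP and 2.65 and 5.97 CPM in TCam-2. KLF13, a Krüppel-like zinc finger factor, averaged 13.7 and 6.72 CPM in 2102 EP and 15.5 and 27.0 CPM in TCam-2. LYPD1 is the least stable of them, since its rise in TCam-2 was lost without TCam-2 DMSO replicate 1 (adjusted p = 0.0531), DMSO replicate 2 (adjusted p = 0.0511) or I-BRD9 replicate 2 (adjusted p = 0.0506). LRCH4 had a larger log2 difference (3.76 ± 0.35, adjusted p = 6.39e-08), with means of 7.51 and 0.779 CPM in 2102 EP and 22.6 and 31.5 CPM in TCam-2. Reads of LRCH4 were shared with other genes in all 12 libraries, and its rise in TCam-2 was lost without TCam-2 DMSO replicate 1 (adjusted p = 0.16), DMSO replicate 2 (adjusted p = 0.138) or I-BRD9 replicate 3 (adjusted p = 0.214).

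Line-specific responses were defined by an interval, since a p above the threshold does not show that a gene stayed level. A gene counted as line-specific when the difference was called, the log2 fold change in the responding line was at least 1 in size, and the 95% interval of the fold change in the other line lay between -0.5 and 0.5. By this rule 39 genes rose and 40 fell in 2102 EP alone, and 19 rose and 33 fell in TCam-2 alone. The label is stricter than the call: 118 of the 131 genes kept the called difference in every setting, and 44 kept the line-specific label in every setting. Of the genes named below as the largest line-specific responses, the label held in 15 of 22 settings for FSCN1, 16 for BIN1, 17 for ZBTB46 and 17 for FGFR2, and in 19 or more for the others.

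Chromatin regulators were found on both sides of the 2102 EP-specific set. CHD7, a chromodomain remodeller (chromosome 8, 60678778 to 60868028), rose from 14.4, 13.9 and 18.3 CPM to 89.6, 73.9 and 70.7 CPM in 2102 EP. In TCam-2 it stood at 234, 286 and 280 CPM with DMSO and 266, 286 and 264 CPM with I-BRD9, which overlap. The log2 fold change was 2.33 in 2102 EP (95% interval 2.08 to 2.58) and 0.03 in TCam-2 (-0.17 to 0.23). The difference was -2.30 ± 0.15 (adjusted p = 3.71e-10).

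JARID2, an accessory subunit that recruits polycomb repressive complex 2 in pluripotent cells, fell in 2102 EP from 647, 597 and 632 CPM to 225, 211 and 214 CPM. In TCam-2 the values were 114, 112 and 116 CPM with DMSO and 102, 96.8 and 108 CPM with I-BRD9. Its log2 fold change was -1.53 in 2102 EP (95% interval -1.68 to -1.38) and -0.16 in TCam-2 (-0.31 to -0.01), and the difference was 1.37 ± 0.10 (adjusted p = 1.9e-09). ASH2L, a core subunit of the histone H3 lysine methyltransferase complexes, averaged 43.5 and 11.7 CPM in 2102 EP and 17.8 and 17.9 CPM in TCam-2. KAT7, a histone acetyltransferase, averaged 173 and 63.2 CPM in 2102 EP and 66.6 and 58.9 CPM in TCam-2. The log2 differences were 1.89 ± 0.24 for ASH2L and 1.27 ± 0.13 for KAT7 (adjusted p = 4.9e-06 and 1.76e-07).

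Other falls specific to 2102 EP under the interval rule were those of FBLIM1, GRB7, PLPP2, FGFR2 and LRRN1. FBLIM1, a filamin-binding adaptor of cell-matrix junctions, averaged 38.8 and 7.59 CPM in 2102 EP against 10.4 and 11.3 CPM in TCam-2 (log2 difference 2.49 ± 0.23, adjusted p = 5.95e-08). GRB7, an adaptor of receptor tyrosine kinases, averaged 70.2 and 16.3 CPM against 30.6 and 27.3 CPM (1.95 ± 0.15, adjusted p = 3.48e-09). In both cases treatment took 2102 EP from the higher to the lower level of the lines. Beside CHD7, the rises were led by USP3, a histone deubiquitinase, at 3.22 and 14.2 CPM in 2102 EP and 28.2 and 30.1 CPM in TCam-2, and by NRGN, YAF2, HSPA4L, ZNF664, SVIP and RIMS4. YAF2, a partner of the RING1 polycomb proteins, averaged 6.33 and 21.1 CPM in 2102 EP and 26.9 and 28.7 CPM in TCam-2, a log2 difference of -1.65 ± 0.19 (adjusted p = 2.44e-06). CHD7, USP3, NRGN, YAF2, HSPA4L, ZNF664 and SVIP were lower in 2102 EP than in TCam-2 in both conditions, and RIMS4 was above it after treatment only.

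Among TCam-2-specific falls, ABHD12B (chromosome 14, 50872160 to 50904970), a member of the serine hydrolase family, measured 18.9, 17.4 and 22.6 CPM with DMSO and 2.37, 0.961 and 2.09 CPM with I-BRD9. The 2102 EP values were 80.4, 75.3 and 72.1 CPM and 94.8, 84.2 and 80.7 CPM. Its log2 fold change was -3.40 in TCam-2 (95% interval -3.81 to -3.00) and 0.19 in 2102 EP (-0.05 to 0.43). DCLK1, a microtubule-associated kinase, averaged 14.7 and 1.57 CPM in TCam-2 and 32.1 and 28.6 CPM in 2102 EP. The log2 differences were -3.59 ± 0.23 for ABHD12B and -3.06 ± 0.25 for DCLK1 (adjusted p = 2.07e-10 and 7.98e-09).

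CDH2 encodes N-cadherin, an adhesion molecule of mesenchymal and germ cells. It fell in TCam-2 from 213, 212 and 202 CPM to 58.9, 55.3 and 54.4 CPM, while 2102 EP gave 28.3, 28.3 and 33.2 CPM with DMSO and 36.5, 31.1 and 37.9 CPM with I-BRD9. The TCam-2 libraries were far apart, and those of 2102 EP were close, with means of 29.9 and 35.2 CPM. The log2 difference was -2.13 ± 0.14 (adjusted p = 1.66e-10). CCND2, a D-type cyclin, averaged 720 and 235 CPM in TCam-2 and 192 and 168 CPM in 2102 EP (-1.42 ± 0.12, adjusted p = 1.03e-08), with shared reads in 3 libraries. SLC16A10, PVR, TMTC1 and LIMCH1 completed the largest falls, with log2 differences between -1.76 and -1.48.

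The largest rises specific to TCam-2 were smaller than the largest falls. EPB41L1, a membrane skeleton protein, rose from 7.2, 8.17 and 9.55 CPM to 28.4, 30.5 and 27.3 CPM in TCam-2 and stood between 43.7 and 49.2 CPM in all 6 libraries of 2102 EP (log2 difference 1.71 ± 0.16, adjusted p = 8.97e-08). FSCN1, the actin-bundling protein fascin, averaged 165 and 472 CPM in TCam-2 and 1174 and 1331 CPM in 2102 EP (1.33 ± 0.10, adjusted p = 3.92e-09). MYLIP, CXXC5, MUC3A, ZBTB46, BIN1 and SH3BP5 had log2 differences between 1.06 and 1.29. CXXC5, a CXXC zinc finger protein, shared reads in 4 libraries. With the exception of SH3BP5, which was higher in TCam-2 throughout, and MYLIP, which was higher there after treatment, these genes had lower means in TCam-2 than in 2102 EP in both conditions.

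**Figure D3:**
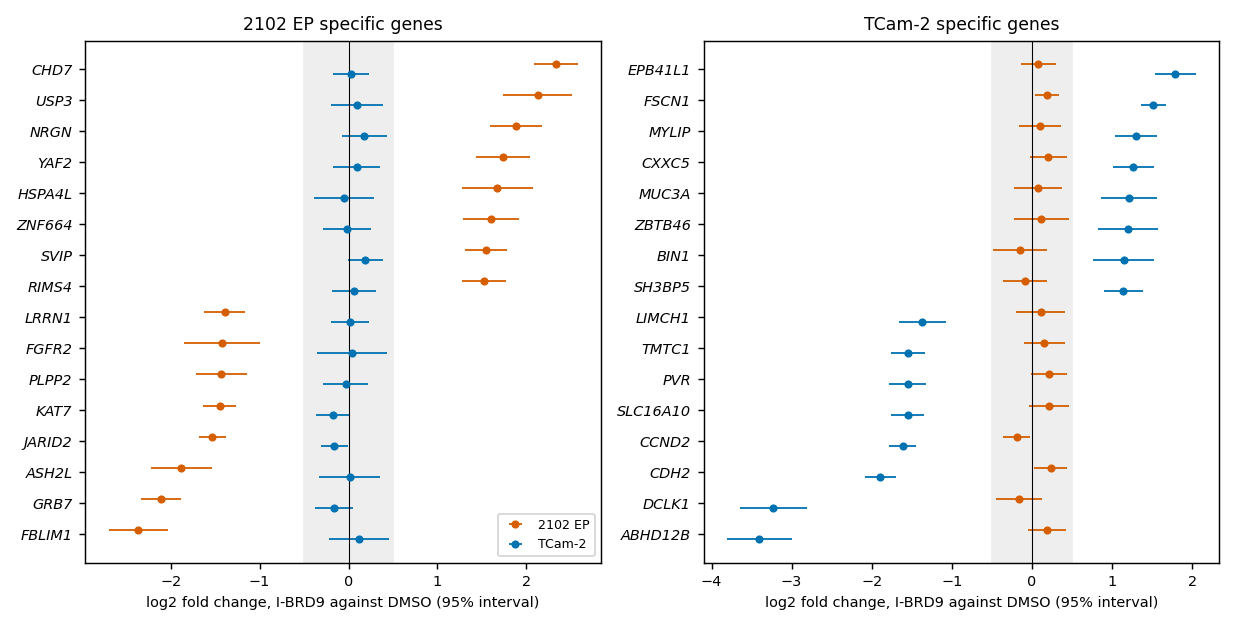
Log2 fold change between I-BRD9 and DMSO in 2102 EP (orange) and TCam-2 (blue) for the 8 genes per line and direction with the largest line-specific response; bars are 95% intervals and the grey band spans -0.5 to 0.5. In each panel the intervals of the other line lie inside the band, from CHD7 (2.33 in 2102 EP, 0.03 in TCam-2) to ABHD12B (0.19 and -3.40).

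A few of the largest differences came from genes that one line hardly expressed. GFRA1, a receptor for glial-derived neurotrophic factor on germ cells, fell in TCam-2 from 21.7, 24.4 and 19.6 CPM to 0.297, 0 and 0.696 CPM, and had 1 count with DMSO and 5 counts with I-BRD9 over the libraries of 2102 EP. Its called difference was lost without 2102 EP I-BRD9 replicate 3 (adjusted p = 0.126). EBF2 fell in TCam-2 from a mean of 25.3 to 2.33 CPM and had 0 and 3 counts in 2102 EP, and its call was lost without 2102 EP I-BRD9 replicate 2 (adjusted p = 0.101). RSPH10B fell from 17.5 to 2.26 CPM in TCam-2 and had in 2102 EP 0 counts with DMSO and 20 counts with I-BRD9, at least 6.35-fold higher against a floor of 3 counts over the group. The call for RSPH10B was lost without 2102 EP I-BRD9 replicate 3 (adjusted p = 0.0637), without TCam-2 I-BRD9 replicate 2 (adjusted p = 0.0506), with the replicate block (adjusted p = 0.0688) and with limma voom (adjusted p = 0.0655). VWA5B2 was steady in TCam-2 at 14.8 and 17.6 CPM and went from 0 to 14 counts in 2102 EP, at least 4.45-fold higher. FOXA3, an endoderm factor, fell in 2102 EP from 14.4 to 5.18 CPM and had 1 and 10 counts in TCam-2.

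Gene lists of pathways and cell types were then read against the background of 13.1% called and a median log2 difference of -0.011 over all genes tested. These are descriptions, since the lists were assembled with earlier results of these data known. The background for calls kept in every setting is 1223 of all 2043 called genes, which were called in all settings. The list counts use only the settings in which a gene was tested, so the measures are not the same.

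The core pluripotency factors differed most often: 16 of 26 tested members were called, 7 with a positive and 9 with a negative difference, and 13 of the 16 kept the call in every setting. The members fell in both lines in most cases, with 23 of 26 falling in 2102 EP and 20 of 26 in TCam-2, so that the line difference was one of size. NANOG, the homeobox factor of naive pluripotency and germ cells, fell from 166, 198 and 162 CPM to 20.9, 18.1 and 19 CPM in 2102 EP and from 494, 527 and 553 CPM to 12.6, 9.73 and 16.1 CPM in TCam-2. TCam-2 began higher and ended at or below 2102 EP (log2 difference -2.17 ± 0.18, adjusted p = 2.04e-08), and reads of NANOG were shared with other genes in 8 libraries. OTX2, a factor of primed pluripotency and forebrain, averaged 25.2 and 20 CPM in 2102 EP and 7.64 and 1.13 CPM in TCam-2 (-2.43 ± 0.29, adjusted p = 3.8e-06). ESRG, a non-coding transcript of human pluripotent cells, averaged 933 and 785 CPM in 2102 EP and 124 and 16.7 CPM in TCam-2 (-2.65 ± 0.12, adjusted p = 3.88e-13), with shared reads in 9 libraries.

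In the other direction lay factors that fell more in 2102 EP. DNMT3B, the de novo methyltransferase of pluripotent cells, averaged 521 and 149 CPM in 2102 EP and 87.4 and 58.5 CPM in TCam-2 (log2 difference 1.23 ± 0.13, adjusted p = 5.3e-07). DPPA4, a chromatin protein of pluripotent cells, averaged 334 and 70.2 CPM in 2102 EP and 165 and 72.4 CPM in TCam-2 (1.07 ± 0.12, adjusted p = 8.45e-07). For L1TD1, an RNA-binding protein of the same cells, the means were 1727 and 485 CPM in 2102 EP and 2284 and 1293 CPM in TCam-2 (1.01 ± 0.11, adjusted p = 6.73e-07). The LIN28 paralogs, which block maturation of let-7 microRNAs, were split: LIN28A had a negative difference (-0.89 ± 0.11) and LIN28B a positive one (0.50 ± 0.11). POU5F1 fell by a similar amount in both lines, from 386 to 186 CPM and from 695 to 323 CPM, with a log2 difference of -0.05 (95% interval -0.30 to 0.19), and its reads were shared with other genes in all 12 libraries. TFCP2L1 was the only member with opposite responses, at 36.1 and 45.8 CPM in 2102 EP and 91.7 and 59.8 CPM in TCam-2 (log2 difference -0.96 ± 0.14, adjusted p = 4.3e-05), and its rise in 2102 EP was lost without 2102 EP DMSO replicate 1 (adjusted p = 0.0709).

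Signalling lists were read next. Of the FGF ligands and ERK feedback genes, 10 of 19 were called, 4 positive and 6 negative, and 7 of the 10 in every setting. The 4 positive members were the receptors FGFR1, FGFR2, FGFR3 and FGFR4. FGFR1 rose in TCam-2 from 91.3 to 157 CPM and measured 154 and 163 CPM in 2102 EP, FGFR2 fell only in 2102 EP (19.8 to 7.38 CPM against 19.2 and 19.8 CPM), and FGFR4 fell in 2102 EP from 37.5 to 24.5 CPM and rose in TCam-2 from 20.1 to 27.8 CPM. The rise of FGFR4 in TCam-2 was lost without TCam-2 I-BRD9 replicate 3 (adjusted p = 0.0517). The ETS factors ETV4 and ETV5, transcriptional targets of ERK signalling, fell in both lines and by a larger fold in TCam-2. ETV4 went from 156 to 31.1 CPM in 2102 EP and from 27.9 to 1.17 CPM in TCam-2. Its fall in CPM was larger in 2102 EP. ETV5 went from 25.3 to 6.71 CPM in 2102 EP and from 29.9 to 1.66 CPM in TCam-2. The log2 differences of ETV4 and ETV5 were -2.22 ± 0.26 and -2.22 ± 0.30 (adjusted p = 2.37e-06 and 1.54e-05). FGF4 fell from 27.2 to 2.52 CPM in 2102 EP and from 226 counts to 2 counts over the 3 libraries in TCam-2, a ratio of 117 with a counting interval of 32.1 to 975.

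NODAL and activin signalling gave 4 called members of 19, all with a positive difference, 3 of them in every setting, and a list median of 0.333. ACVR2B, an activin receptor, fell in 2102 EP from 56.5, 55.4 and 56.2 CPM to 41.2, 32.0 and 34.7 CPM and rose in TCam-2 from 61.4, 59.6 and 57.1 CPM to 96.0, 86.8 and 74.7 CPM (log2 difference 1.18 ± 0.15, adjusted p = 5.98e-06). SMAD7, the inhibitory SMAD, averaged 28.0 and 19.8 CPM in 2102 EP and 9.03 and 14.4 CPM in TCam-2 (1.17 ± 0.22, adjusted p = 0.00053). SKIL, a repressor of SMAD targets, averaged 61.4 and 31.7 CPM in 2102 EP and 45.7 and 56.9 CPM in TCam-2 (1.26 ± 0.15, adjusted p = 3.14e-06). The rise of SKIL in TCam-2 was lost without DMSO replicate 1 (adjusted p = 0.16) or 3 (adjusted p = 0.113), and without I-BRD9 replicate 1, 2 or 3 (adjusted p = 0.0539, 0.108 and 0.0516). BMP7, a ligand of the BMP branch, was opposite in the other sense, at 17.5 and 25.8 CPM in 2102 EP and 54.3 and 28.1 CPM in TCam-2 (-1.51 ± 0.17, adjusted p = 1.95e-06). The BMP list had 6 of 15 called, 3 in each direction.

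Cell cycle genes were read by phase. All 6 called members of 16 CDK inhibitors and G1 cyclins had a negative difference (list median -0.234), and 5 of the 6 did so in every setting. CCND1, the D-type cyclin that activates CDK4 and CDK6, rose in 2102 EP from 216, 218 and 220 CPM to 350, 355 and 354 CPM and fell in TCam-2 from 30.0, 29.4 and 31.1 CPM to 19.5, 19.2 and 17.3 CPM. Its groups were separate in both lines, and the log2 difference was -1.39 ± 0.11 (adjusted p = 8.2e-09). CDKN1A, the p21 inhibitor of CDK2, rose in 2102 EP from 22.6 to 49.1 CPM and measured 12.1 and 11.6 CPM in TCam-2 (-1.19 ± 0.21, adjusted p = 0.000271). CDKN1C, the p57 inhibitor, rose in both lines, from 31.6 to 262 CPM and from 11.3 to 99.0 CPM, with a log2 difference of 0.09 (95% interval -0.22 to 0.40). Replication and mitosis lists were near the background: 3 of 29 G1/S and replication genes and 4 of 26 G2/M genes were called, and none of the former kept its call in every setting. Of the 29 G1/S and replication genes 20 fell in 2102 EP and 24 in TCam-2, and of the 26 G2/M genes 22 and 25 fell.

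**Figure D4:**
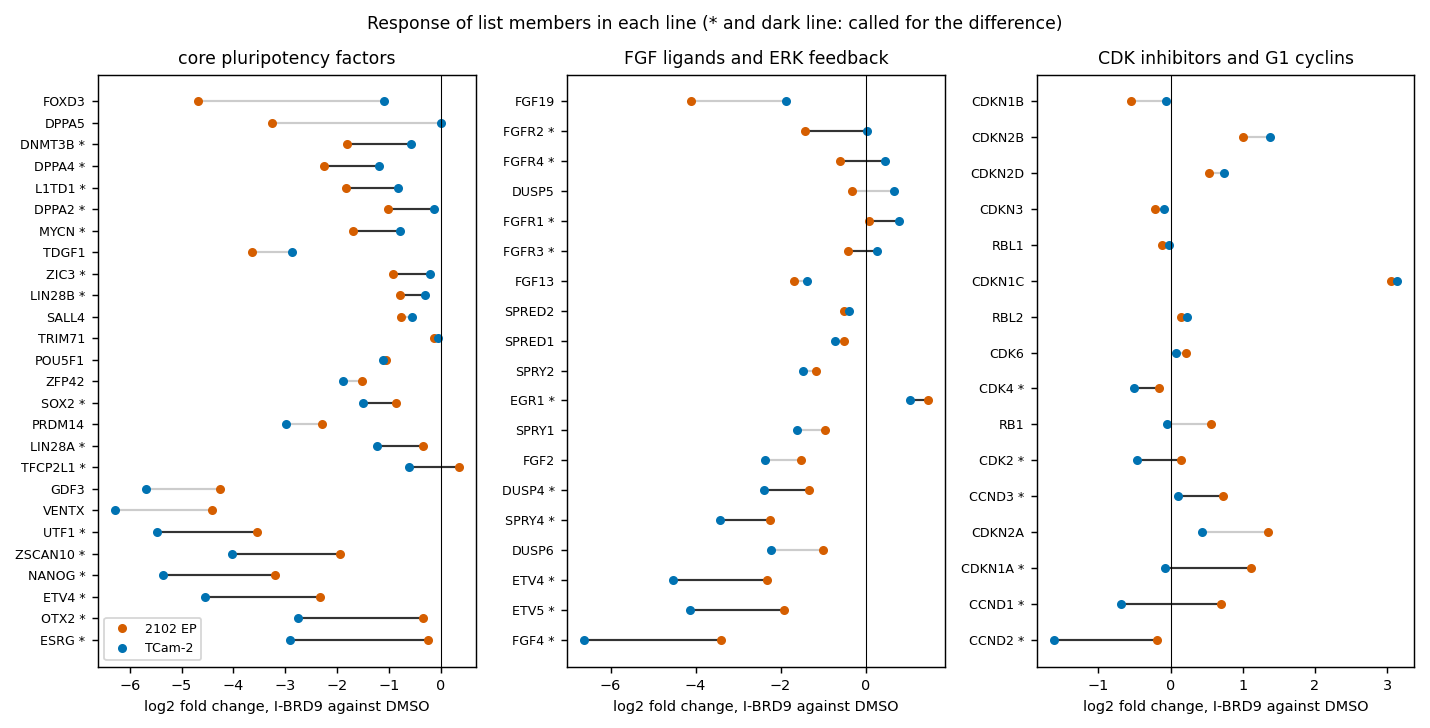
Log2 fold change between I-BRD9 and DMSO in 2102 EP (orange) and TCam-2 (blue) for the tested members of 3 lists; a dark connecting line and an asterisk mark a called difference. Most pluripotency factors lie left of 0 in both lines with unequal size, the 4 FGF receptors shift right in TCam-2, and CDKN1C (3.05 and 3.14) has no called difference.

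Among p53 targets 11 of 25 were called, 3 positive and 8 negative, with a list median of -0.324 and 8 of the 11 in every setting. BTG2, an antiproliferative gene, averaged 1.81 and 10.7 CPM in 2102 EP and 16.0 and 28.0 CPM in TCam-2 (log2 difference -1.75 ± 0.33, adjusted p = 0.000766). Of the positive members, BBC3 and PMAIP1 encode BH3-only proteins that antagonise MCL1 and its relatives. BBC3 fell in 2102 EP from 67.2 to 53.5 CPM and rose in TCam-2 from 40.0 to 61.2 CPM (0.94 ± 0.14, adjusted p = 4.59e-05), and its fall was lost without 2102 EP DMSO replicate 2 (adjusted p = 0.0628). PMAIP1 averaged 101 and 49.5 CPM in 2102 EP and 95.6 and 84.1 CPM in TCam-2 (0.84 ± 0.15, adjusted p = 0.000308).

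Apoptosis regulators gave 7 of 25 called, 3 positive and 4 negative. MCL1, the anti-apoptotic BCL2 relative, fell in 2102 EP from 233, 211 and 196 CPM to 99.8, 127 and 129 CPM and measured 209, 185 and 198 CPM and 218, 203 and 239 CPM in TCam-2. Its log2 difference was 1.01 ± 0.14 (adjusted p = 1.42e-05). CASP8, the initiator caspase of death receptors, fell in TCam-2 from 69.5, 83.6 and 96.1 CPM to 14.4, 16.2 and 20.9 CPM and measured 8.83 and 10.3 CPM on average in 2102 EP. The log2 difference for CASP8 was -2.49 ± 0.22 (adjusted p = 2.25e-08). The larger changes were thus in 2102 EP for MCL1 and PMAIP1 and in TCam-2 for CASP8, each with a called difference. PMAIP1 met the interval rule for a line-specific response, in 19 of 22 settings, and MCL1 and CASP8 did not meet it.

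Mesenchymal and epithelial genes gave 12 of 24 called, 6 in each direction, with 9 of the 12 in every setting. Beside VIM, FN1 and CDH2, the negative members included TGFBI, a matrix protein, at 2.81 and 14.6 CPM in 2102 EP and 9.43 and 13.6 CPM in TCam-2, and the gelatinase MMP2, at 19.6 and 20.9 CPM against 7.86 and 2.13 CPM. The positive members included ESRP1, the epithelial splicing regulator, which fell in both lines and further in 2102 EP (96.5 to 40.5 CPM against 111 to 87.3 CPM, log2 difference 0.91 ± 0.12, adjusted p = 8.74e-06). Markers of fibroblasts moved beside these genes: the 8 listed summed to 230 to 257 CPM in 2102 EP with DMSO and 133 to 157 CPM with I-BRD9, and to 191 to 198 CPM and 89.7 to 136 CPM in TCam-2, most of it THY1 in the former line and COL1A2 in the latter. The members at or near 0 and those expressed are given above, and the part of this sum in the results was not tested. Of the Hippo list, 5 of 16 were called, and ANKRD1, a YAP target, rose more in 2102 EP (10.1 to 145 CPM against 38.5 to 58.2 CPM, -3.25 ± 0.19, adjusted p = 4.88e-11). The difference for ANKRD1 was negative where that for the coactivator gene WWTR1 was positive.

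Lineage genes of trophoblast, mesoderm and neuroectoderm gave 3 of 14, 4 of 10 and 5 of 14 called. Of these, 1 was positive and 2 negative for trophoblast, 1 and 3 for mesoderm, and 1 and 4 for neuroectoderm. KRT18 was the positive trophoblast member and NES the positive neuroectoderm member, each called in 22 of 22 settings. HAND1, a factor of extraembryonic and cardiac mesoderm, rose in 2102 EP from 4.8, 6.13 and 4.99 CPM to 80.3, 68.5 and 72 CPM and in TCam-2 from 194, 196 and 160 CPM to 570, 568 and 503 CPM. The fold was larger in 2102 EP (log2 difference -2.21 ± 0.16, adjusted p = 1.18e-09), while the rise in CPM was larger in TCam-2, so that the sign depends on the scale. Over all called genes, 118 had the other sign when changes were taken in CPM, 95 of them genes called in both lines with one sign and none of them opposite. NEFM, a neurofilament, averaged 2.82 and 18.9 CPM in 2102 EP and 7.67 and 14.3 CPM in TCam-2 (-1.84 ± 0.31, adjusted p = 0.000183). Seminoma and primordial germ cell genes had 5 of 16 called, 1 positive and 4 negative, 3 of them in every setting, with CXCR4 the most negative. In bulk libraries, fewer cells of a type and less RNA per cell cannot be told apart.

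Chromatin complexes showed scattered members and no common direction, except for the deacetylases. Of 30 BAF subunits and paralogs 7 were called, 5 positive and 2 negative, 4 of them in every setting. SMARCA2, the BRM ATPase, fell in 2102 EP from 39.1, 37.1 and 39.4 CPM to 24.0, 19.1 and 17.2 CPM and rose in TCam-2 from 47.7, 53.2 and 47.9 CPM to 82.7, 80.2 and 71.7 CPM. The libraries were separate in each line, and the log2 difference was 1.60 ± 0.16 (adjusted p = 1.65e-07). BCL11B, a zinc finger subunit, fell in both lines and further in TCam-2 (9.82 to 3.06 CPM against 105 to 15.2 CPM, -1.12 ± 0.21, adjusted p = 0.000792). All 5 called of 16 histone deacetylases were positive, 4 of them in every setting: HDAC5 rose in TCam-2 from 4.58 to 9.40 CPM against 27.9 and 25.0 CPM in 2102 EP, and HDAC2 fell in 2102 EP from 321 to 217 CPM against 331 and 310 CPM in TCam-2. The log2 differences were 1.2 ± 0.23 for HDAC5 and 0.47 ± 0.10 for HDAC2 (adjusted p = 0.000691 and 0.00249).

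Of 24 polycomb genes 7 were called, 2 positive, with JARID2 the most positive, and 5 negative, with YAF2 the most negative. PCGF5, a RING finger subunit of polycomb complex 1, rose in 2102 EP from 7.72 to 16.6 CPM and measured 39.3 and 40.6 CPM in TCam-2 (log2 difference -1.06 ± 0.18, adjusted p = 0.00023). The DNA methylation machinery had 5 of 15 called, 4 of them positive. DNMT3L, the cofactor of de novo methylation, fell in 2102 EP from 52.0 to 3.69 CPM and in TCam-2 from 14 to 4.15 CPM (2.08 ± 0.30, adjusted p = 2.93e-05). DNMT3A averaged 196 and 79.4 CPM in 2102 EP and 110 and 94.5 CPM in TCam-2 (1.10 ± 0.14, adjusted p = 5.77e-06). The 3 de novo genes DNMT3A, DNMT3B and DNMT3L thus fell more in 2102 EP, and the oxidising enzyme TET2 was the negative member, at 1.97 and 3.14 CPM in 2102 EP and 30.1 and 16.0 CPM in TCam-2 (-1.62 ± 0.36, adjusted p = 0.0034).

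Metabolic and stress lists differed in size of response and in part in direction. Opposite responses numbered 1 among ATF4 targets, 3 among glycolysis and hypoxia genes, and 0 each among cholesterol genes and metallothioneins. For the ATF4 targets of the integrated stress response 11 of 29 were called, 8 positive and 3 negative, 6 of the 11 in every setting. CHAC1, a glutathione-degrading enzyme induced by ATF4, fell from 61.3, 68.8 and 59.3 CPM to 6.41, 4.01 and 4.35 CPM in 2102 EP and from 16.8, 16.1 and 14.2 CPM to 9.89, 9.01 and 6.84 CPM in TCam-2. Both lines ended at a similar level (log2 difference 2.83 ± 0.24, adjusted p = 1.36e-08). SLC7A11, the cystine transporter, averaged 46.7 and 6.17 CPM in 2102 EP and 19.4 and 12.2 CPM in TCam-2 (2.25 ± 0.26, adjusted p = 1.56e-06). The amino acid transporter SLC38A2 was opposite, at 154 and 118 CPM in 2102 EP and 78.0 and 115 CPM in TCam-2 (0.95 ± 0.12, adjusted p = 1.01e-05).

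Cholesterol and SREBP genes gave 9 of 28 called, 7 positive and 2 negative, 6 of the 9 in every setting, and rose in both lines for 15 and 21 of 28 members in 2102 EP and TCam-2. FDFT1, which makes squalene, averaged 130 and 190 CPM in 2102 EP and 365 and 848 CPM in TCam-2 (log2 difference 0.67 ± 0.10, adjusted p = 9.6e-05). SCD, the stearoyl-CoA desaturase, averaged 505 and 626 CPM in 2102 EP and 311 and 802 CPM in TCam-2 (1.06 ± 0.13, adjusted p = 6.81e-06). The negative members were INSIG1, the retention factor of SREBP, at 51.0 and 263 CPM in 2102 EP and 15.5 and 44.6 CPM in TCam-2 (-0.84 ± 0.15, adjusted p = 0.000368), and the fatty acid synthase FASN (-0.54 ± 0.13, adjusted p = 0.00833).

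Glycolysis and hypoxia genes gave 12 of 30 called, 4 positive and 8 negative, 11 of them in every setting. SLC2A3, the glucose transporter GLUT3, rose in 2102 EP from 489 to 2303 CPM and in TCam-2 from 1129 to 1437 CPM on average (log2 difference -1.89 ± 0.10, adjusted p = 8.22e-12), with shared reads in all 12 libraries. ADM, the vasodilator peptide adrenomedullin, was opposite, at 24.7 and 68.5 CPM in 2102 EP and 492 and 332 CPM in TCam-2 (-2.04 ± 0.21, adjusted p = 1.72e-05). Metallothioneins, small zinc-binding proteins of near-identical sequence, had 4 of 10 called and all negative, each of the 4 in every setting. MT1M fell from 57.3 to 24.7 CPM in 2102 EP and from 86.0 to 15.0 CPM in TCam-2 (-1.31 ± 0.16, adjusted p = 3.98e-06), with shared reads in 10 libraries.

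Other signalling lists also held members with large differences. WLS, the carrier of secreted WNT proteins, averaged 2.64 and 33.2 CPM in 2102 EP and 82.4 and 126 CPM in TCam-2 (log2 difference -3.04 ± 0.19, adjusted p = 9.48e-11), in a WNT list with 8 of 19 called, 3 positive and 5 negative. HEY2, a Notch target repressor, averaged 10.5 and 4.33 CPM in 2102 EP and 0.937 and 2.81 CPM in TCam-2 (2.86 ± 0.49, adjusted p = 0.00023), and RBPJ, the DNA-binding partner of Notch, averaged 235 and 171 CPM against 542 and 164 CPM (-1.27 ± 0.11, adjusted p = 1.65e-08). CRABP1, a retinoic acid carrier, was opposite at 4.68 and 12.3 CPM in 2102 EP and 4.51 and 0.816 CPM in TCam-2 (-3.84 ± 0.38, adjusted p = 1.8e-07). Among imprinted genes 7 of 18 were called, all of them in every setting, and SNRPN was opposite at 565 and 442 CPM in 2102 EP and 117 and 175 CPM in TCam-2 (0.93 ± 0.11, adjusted p = 2.9e-06).

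At the other end, 0 of 32 cytosolic ribosomal proteins were called by edgeR, by DESeq2 or by limma voom, and 2 of the 32 had an unadjusted edgeR p under 0.05. Of 28 nuclear respiratory chain subunits 1 was called (UQCRC1). MHC class I genes gave 1 of 12 (B2M), interferon-stimulated genes 3 of 20, ER chaperones 2 of 20 and MYC network genes 3 of 26. These shares lie at or below the 13.1% of all genes tested, or within 2 percentage points above it.

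**Figure D5:**
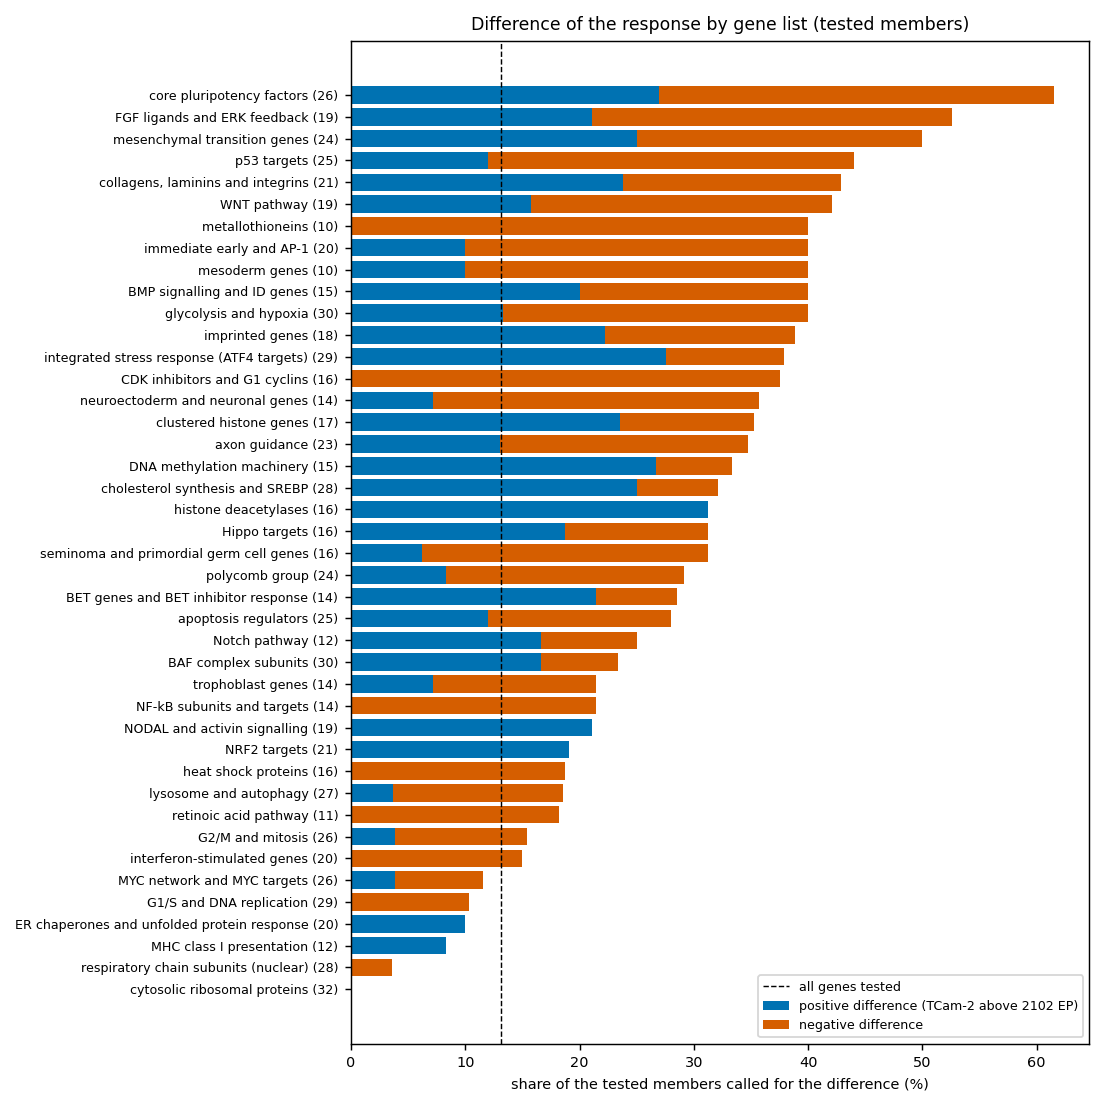
Share of tested members with a called difference for 42 gene lists (number tested in brackets), split into positive (blue) and negative (orange) differences; the dashed line marks the 13.1% of all genes tested. Core pluripotency factors (61.5%) lie at the top and cytosolic ribosomal proteins (0%) at the bottom.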

How the data were processed

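RNA was measured by 3′ mRNA sequencing (QuantSeq) in 12 libraries, 3 for each of 4 groups, and all were used. The values are estimated counts per gene, deposited by the authors in a merged Salmon table. Per the submitters' processing notes, Trim Galore, STAR 2.7.11b, Salmon 1.9.0, R 4.2.0 and DESeq2 were used on GRCh38. For the annotation and the strand setting, the entry is: not given in the sources used here. Estimated counts with a fractional part mark reads shared between genes, and where 3 or more libraries held such a value the number is given beside the gene or here: 12 for BRD7, 7 for SNRPN, 6 for WLS, 5 for MMP2, 4 for FGFR1, 3 for SCD and 3 for RSPH10B.

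Counts were rounded to whole numbers. Genes low in all groups were removed with filterByExpr (15614 of 63241 kept), libraries were scaled by TMM, and a single model of the 4 group means covered the 12 libraries in edgeR 4.0.16 (R 4.3.3, robust quasi-likelihood, 8 residual degrees of freedom before moderation, common biological coefficient of variation 0.127). The difference and the effect in each line were contrasts of that model, with Benjamini-Hochberg adjustment over all genes tested in each contrast and a threshold of 0.05. Standard errors are the fold change divided by the root of the F statistic. CPM values are counts divided by the TMM-scaled library size. DESeq2 1.42.0 and limma 3.58.1 (voom) served as alternatives. The scripts were tested on simulated data. Coordinates are from GENCODE on GRCh38. Intervals on counts and the floor of 3 counts cover counting error only, since reads without molecular identifiers are not independent molecules.

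Apart from BRD9, BRD7 and the cell type markers, genes were named by rule, with a mean of at least 10 CPM in the highest group. For list members the limit was 5 CPM. The rule took the 12 most positive and 12 most negative differences. It took the 12 opposite genes per direction with the largest smaller-of-both effects (at least 5 CPM in each line). It also took the 8 line-specific genes per line and direction, and up to 3 members per direction of each list. Symbols of antisense, overlapping, intronic and divergent transcripts were left out. POU5F1 and CDKN1C, without a called difference, were named after their values were seen. Also named outside the rule were NANOG, LIN28A, LIN28B, TFCP2L1, FGFR3, TGFBI, MMP2, DNMT3A and HDAC2, called members beyond the 3 of their direction. The comparison, the members and the lists were chosen with earlier results of these data known. Replicate numbers were not treated as pairs in the main model. Deviations from the group means correlated at -0.119 to 0.16 (median 0.0136) for libraries with the same number, and 4 of 18 pairs were above 0.1. Libraries with other numbers gave -0.181 to 0.175 (median -0.0276), with 4 of 36 pairs above 0.1. Such weak correlations cannot show whether libraries with the same number shared a culture or a preparation. Replicate numbers follow the sample titles; the library codes in the sample descriptions put TCam-2 DMSO replicates 1 and 2 in the other order.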

Additional observations from a re-analysis of the deposited data

Results flagged for a closer look

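The I-BRD9 response differed between the lines, by the test of the difference itself, for 921 genes in the positive and 1122 in the negative direction, and 265 genes had opposite responses. Of the opposite genes with the largest effects in both lines, those that rose in TCam-2 and fell in 2102 EP had log2 differences of 3.40 for ARHGAP4, 3.36 for CD24, 2.60 for LYPD1, 2.50 for NATD1, 2.45 for CAVIN3 and 2.34 for ZBTB3. In the same direction the log2 difference was 2.17 for CRIP2, 2.13 for WWTR1, 2.12 for SLC22A23, 2.08 for PTP4A3, 1.83 for PDGFA and 1.81 for KLF13. Those that fell in TCam-2 and rose in 2102 EP had log2 differences of -6.39 for ANGPTL4, -3.85 for VIM, -3.63 for FOLR1, -3.39 for VASH1, -3.39 for PSTPIP2 and -3.08 for IGFBP3. In that direction the log2 difference was -2.90 for SP6, -2.70 for MERTK, -2.47 for SRGAP1, -2.38 for SERPINE2, -2.18 for CREB3L1 and -2.04 for FN1. All 24 differences passed the test in every one of the 22 settings.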

How the results depend on the processing

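Over 21 alternatives the number of called differences ran from 1652 (without TCam-2 DMSO replicate 2) to 2194 (no low-count filter), against 2043, and 1223 genes were called in all of them. DESeq2 called 2050 and limma voom 1972. The number of opposite genes ran from 211 to 257 when a library was left out, and 120 of the 265 were opposite in every setting; 261 of the 265 kept the called difference. With the replicate number as a block, 1836 differences were called, 1807 of them shared, and 240 genes were opposite. With the library codes as a block, 1914 were called and 250 were opposite. Genes low in one line numbered 143 without the low-count filter and 0 when only genes at 1 CPM or more in both lines were tested, which follows from the filters. Genes called in neither line numbered 60 without the filter and 56 with DESeq2, against 36; the cause was not tested. No called difference of a named gene changed sign; the differences of BRD9 and BRD7, which were not called, ran from -0.03 to 0.13 and from -0.015 to 0.07. Depth limits genes near 3 counts, which is 0.297 to 0.409 CPM.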

Other observations

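The groups below were assembled after the values were seen, and their counts are descriptions, beside 13.1% called and 1.7% opposite over all genes tested. Of 7 tested IGF binding protein genes, secreted carriers of insulin-like growth factors, 5 had a called difference, all negative, and 4 were opposite, of which IGFBP4 was opposite in 14 of 22 settings, IGFBPL1 in 18 and IGFBP5 in 20. IGFBP5 averaged 1.13 and 2.81 CPM in 2102 EP without and with I-BRD9 and 12.0 and 2.50 CPM in TCam-2, a log2 difference of -3.56 ± 0.48. IGFBPL1 averaged 47.2 and 56.4 CPM in 2102 EP and 131 and 90.1 CPM in TCam-2 (-0.79).

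Epithelial junction and polarity genes ran the other way: 17 of 28 were called, 15 positive and 2 negative, and 9 were opposite, with a median log2 difference of 0.583. The opposite label was unstable for CXADR (8 of 22 settings), MARVELD2 (15), PERP (16) and TJP3 (17). PRSS8, a membrane-anchored serine protease of epithelia, averaged 49.3 and 27.9 CPM in 2102 EP and 60.4 and 88.4 CPM in TCam-2 (1.38 ± 0.16). CDH3, P-cadherin, averaged 87.2 and 56.5 CPM in 2102 EP and 123 and 153 CPM in TCam-2 (0.94). MAL2, a protein of apical transport, averaged 42.8 and 21.6 CPM in 2102 EP and 53.3 and 70.6 CPM in TCam-2 (1.39). MARVELD2, tricellulin, was one of the 2 exceptions, at 40.0 and 64.9 CPM in 2102 EP and 75.7 and 63.0 CPM in TCam-2 (-0.96).

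The caveolar gene CAV1 averaged 31.4 and 18.9 CPM in 2102 EP and 5.38 and 9.27 CPM in TCam-2 (log2 difference 1.51 ± 0.23), in the direction of CAVIN3, while CAVIN1 averaged 216 and 438 CPM in 2102 EP and 289 and 334 CPM in TCam-2 (-0.81). Among 7 tested IRX and CDX homeobox genes 4 were called and all 4 were opposite, CDX2 in only 6 of 22 settings, IRX6 in 18, CDX1 in 21 and IRX2 in 22. CDX1 averaged 4.14 and 9.27 CPM in 2102 EP and 1.13 and 0.178 CPM in TCam-2 (-3.71), and IRX2 averaged 173 and 110 CPM against 135 and 166 CPM (0.95 ± 0.11).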
